A study of Homo sapiens with 3 samples.

Results

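The genes described here stood apart from the empty-vector array by at least 1 log2 unit, which is 2-fold, in the same direction on both oncogene arrays of RWPE1 cells. RWPE1 is an established, immortalised line of benign human prostate epithelium. For each gene the log2 difference from the vector array was taken on the array labelled MYC and that of PI3K, and the smaller of the 2 differences decided. Of 8148 genes kept, 242 passed: 206 were lower on both arrays (2.53% of the kept genes) and 36 were higher on both (0.442%). Of the lower genes, 52 belonged to a core list of interferon-induced genes, 24 to an extended list and 130, or 63.1%, to neither. None of the 36 higher genes was on either list. The lists held 185 of the 8148 kept genes, so finding none among 36 says little. These measured differences chose the genes, so the differences are given as a description without a test.

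The groups were RWPE1 cells with retrovirally introduced MYC, RWPE1 cells with retrovirally introduced constitutively active PI3K carrying the E545K substitution, and RWPE1 cells with the empty retroviral vector PMN. The cells received no other treatment and shared a serum-free keratinocyte medium with pituitary extract and EGF. Each group was measured on 1 Illumina array, so 3 arrays were used. The sources used here do not say whether each line was 1 clone or a pool. There was no replicate check, and the number of arrays limits the precision. Both differences use the same vector array, so a state of the single vector culture and an effect shared by both oncogenes cannot be told apart. For this reason no correlation between the 2 differences is given.

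The median raw signal was 128.7 on the array labelled MYC and 158.9 on vector. Below, every signal is on the scale of the vector array. The median gene differed from vector by 0.07 log2 on the array labelled MYC and by 0.05 for PI3K. The introduced gene did not mark its own array: the single MYC probe had a signal of 5229 on the array labelled MYC and 3520 on PI3K, against 6229 on the vector array. Its differences from vector were -0.25 and -0.82 log2 units, which goes against the label. Whether the probe reads the introduced copy was not tested, and "the array labelled MYC" is used throughout. No probe named PIK3CA, the gene of the PI3K catalytic subunit. The basal keratins of the cell type were well above background: KRT5 had 5473 on the array labelled MYC, 11735 on PI3K and 17322 on vector, and KRT14 had 5975, 13094 and 23640 on these arrays. KLK3, the prostate-specific antigen made by mature luminal cells, was not well above background on the array labelled MYC or on vector. None of 10 fibroblast and none of 9 endothelial marker genes was kept, and 3 of 11 leukocyte markers on the array were kept, none of them past 1 log2 on both arrays.

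Interferons are secreted antiviral signals. Type I and III interferons act through receptor-bound kinases on a transcription factor complex that holds IRF9 and binds a promoter sequence called the interferon-stimulated response element, while interferon gamma acts on another sequence, the gamma-activated site. The basal layer of prostate epithelium is known for keratins, secreted WNT antagonists, protease inhibitors and detoxifying enzymes. PI3K signalling through AKT keeps FOXO transcription factors out of the nucleus and raises lipid synthesis through SREBP factors, and MYC binds the E-box sequence at genes of growth and metabolism.

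A property that did not enter the choice of genes is the sequence at their starts. Promoter windows from RefSeq on GRCh38.p14, running from 250 bases before to 50 bases after each listed start, were found for 57 of the 76 lower genes on the interferon lists, 99 of the 130 lower genes on neither list, 24 of the 36 higher genes and 6852 of the kept genes. They are shown here for 3 list genes and 3 genes on neither list, because the response element divides these groups most. The 3 genes on neither list were taken from the 5 of 99 that held it, so no window without a match is shown. Capitals mark each match to the response element as searched, which is GAAA, any 2 bases and GAAA again, on either strand, and each sequence runs 5′ to 3′ along the gene's own strand.
IFI27 at chr14:94110486-94110785, plus strand: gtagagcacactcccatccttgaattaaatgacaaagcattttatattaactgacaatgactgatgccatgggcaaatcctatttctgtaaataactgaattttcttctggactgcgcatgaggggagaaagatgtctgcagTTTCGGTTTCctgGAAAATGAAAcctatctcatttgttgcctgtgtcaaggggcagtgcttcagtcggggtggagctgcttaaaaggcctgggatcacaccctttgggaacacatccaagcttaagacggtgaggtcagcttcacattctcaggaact
IFI6 at chr1:27672143-27672442, minus strand: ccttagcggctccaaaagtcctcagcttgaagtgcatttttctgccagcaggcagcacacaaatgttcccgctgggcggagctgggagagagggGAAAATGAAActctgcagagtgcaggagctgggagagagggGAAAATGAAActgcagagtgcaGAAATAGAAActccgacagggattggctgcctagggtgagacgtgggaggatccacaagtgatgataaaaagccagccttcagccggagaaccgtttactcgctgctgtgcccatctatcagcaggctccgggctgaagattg
IFI44L at chr1:78620198-78620497, plus strand: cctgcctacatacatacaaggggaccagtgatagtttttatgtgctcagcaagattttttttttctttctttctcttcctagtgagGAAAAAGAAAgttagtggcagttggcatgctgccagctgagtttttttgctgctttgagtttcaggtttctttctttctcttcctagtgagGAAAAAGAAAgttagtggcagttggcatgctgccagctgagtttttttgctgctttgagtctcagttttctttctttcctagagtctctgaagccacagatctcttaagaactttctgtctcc
SGK1 at chr6:134318063-134318362, minus strand: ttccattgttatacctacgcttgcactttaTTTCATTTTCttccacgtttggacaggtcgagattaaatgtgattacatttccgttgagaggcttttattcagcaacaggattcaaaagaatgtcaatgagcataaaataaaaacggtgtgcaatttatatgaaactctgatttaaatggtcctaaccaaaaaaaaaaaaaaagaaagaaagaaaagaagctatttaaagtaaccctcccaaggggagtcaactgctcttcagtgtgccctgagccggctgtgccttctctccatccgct
NFIX at chr19:12995225-12995524, plus strand: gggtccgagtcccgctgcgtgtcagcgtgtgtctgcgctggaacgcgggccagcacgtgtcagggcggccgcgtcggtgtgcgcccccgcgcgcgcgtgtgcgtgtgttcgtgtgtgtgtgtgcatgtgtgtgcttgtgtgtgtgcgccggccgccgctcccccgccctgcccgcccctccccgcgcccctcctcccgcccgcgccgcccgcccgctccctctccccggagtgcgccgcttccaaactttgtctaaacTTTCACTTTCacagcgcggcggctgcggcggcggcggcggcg
IFNL1 at chr19:39296157-39296456, plus strand: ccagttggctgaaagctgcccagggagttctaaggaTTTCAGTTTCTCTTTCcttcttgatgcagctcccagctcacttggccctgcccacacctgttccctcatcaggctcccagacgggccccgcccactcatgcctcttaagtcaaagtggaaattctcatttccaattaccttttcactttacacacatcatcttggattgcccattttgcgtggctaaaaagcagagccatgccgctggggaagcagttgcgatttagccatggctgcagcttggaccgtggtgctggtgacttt

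The IFI27, IFI6 and IFI44L windows held 2, 3 and 2 matches, with the first starting at -108, -156 and -164 relative to the listed start. The SGK1 and IFNL1 windows held 1 and 2, the first at -220 and -214, and the NFIX match lay 8 bases after the start. The response element was found at 33 of the 57 lower list genes (57.9%) and at 5 of the 99 lower genes on neither list (5.05%). It was found at 0 of the 24 higher genes and at 272 of all kept genes (3.97%). The lower genes off the lists thus held it at about the share of all kept genes, and the 5 were SGK1, NFIX, IRX4, IFNL1 and EDN1. With the first listed start alone the shares were 52.6% for list genes, 3.03% off the lists and 2.99% of kept genes. Of all 35116 windows in the table, 3.57% held it. The lists were drawn up from knowledge of these same pathways, so their share is not independent of how they were made.

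**Figure D1:**
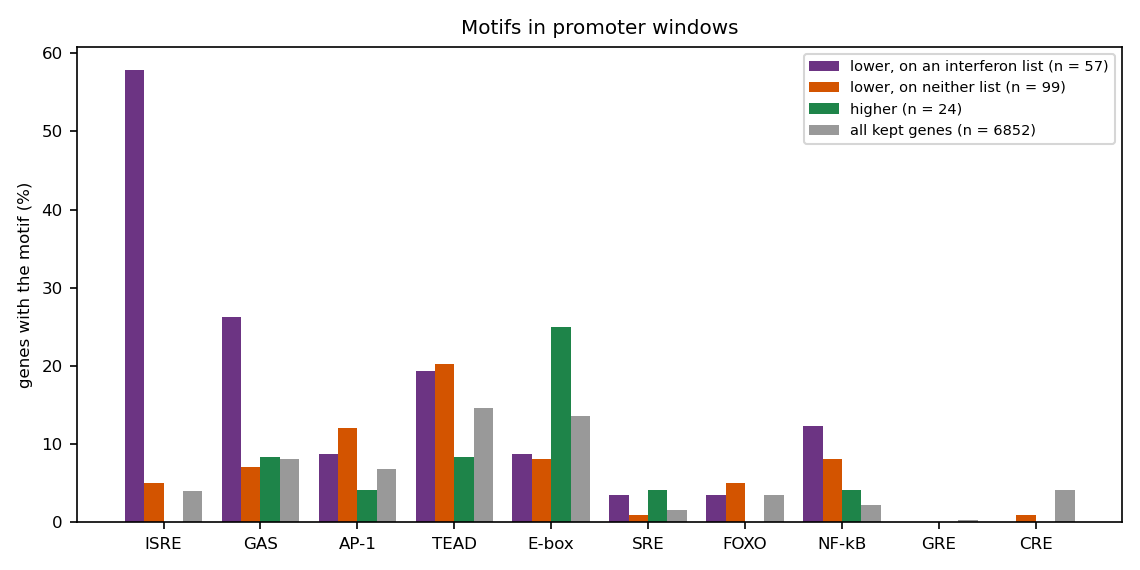
The share of genes, in percent on the vertical axis, with each of 10 motifs in a promoter window is drawn for lower genes on an interferon list, lower genes on neither list, higher genes and all kept genes. The response element (ISRE) stands at 57.9% in the first group and 5.05% in the second, close to the 3.97% of all kept genes.

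Other motifs gave smaller contrasts. The gamma-activated site TTCNNNGAA, searched on both strands as were all motifs, was at 26.3% of the lower list genes, 7.07% of the lower genes off the lists and 8.16% of kept genes. The NF-kB letters, GGGA and TTCC with any 2 bases between, were at 12.3% of lower list genes, 8.08% of lower genes off the lists and 2.26% of kept genes. The AP-1 letters TGANTCA and the TEAD letters GGAATG were at 12.1% and 20.2% of lower genes off the lists, against 6.87% and 14.7% of kept genes. With the first listed start alone these 2 shares were 6.06% and 14.1%, against 4.41% and 10.5%, and the NF-kB shares were 12.3% on the lists, 5.05% off them and 1.66% of kept genes. The E-box CACGTG, the letters MYC reads, was at 8.08% of the lower genes off the lists and at 6 of the 24 higher genes (25.0%), against 13.5% of kept genes. The 6 were TNFRSF8, ODC1, ALDOC, TXNDC12, AKAP12 and LRP3. The sterol element TCACNCCAC was at 1 of the 24 higher genes (4.17%), against 1.53% of kept genes. That gene was ALDOC, an aldolase. The windows of ACLY, SCD, DHCR7 and HMGCS1, which make lipids, held no match, and FASN and SQLE had no window. A match is a run of letters and not a site shown to be bound, and with 24 higher genes 1 gene moves a share by several points. The windows overlap between neighbouring starts, and genes off the lists had a mean of 1.60 listed starts against 1.45 over kept genes.

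**Figure D2:**
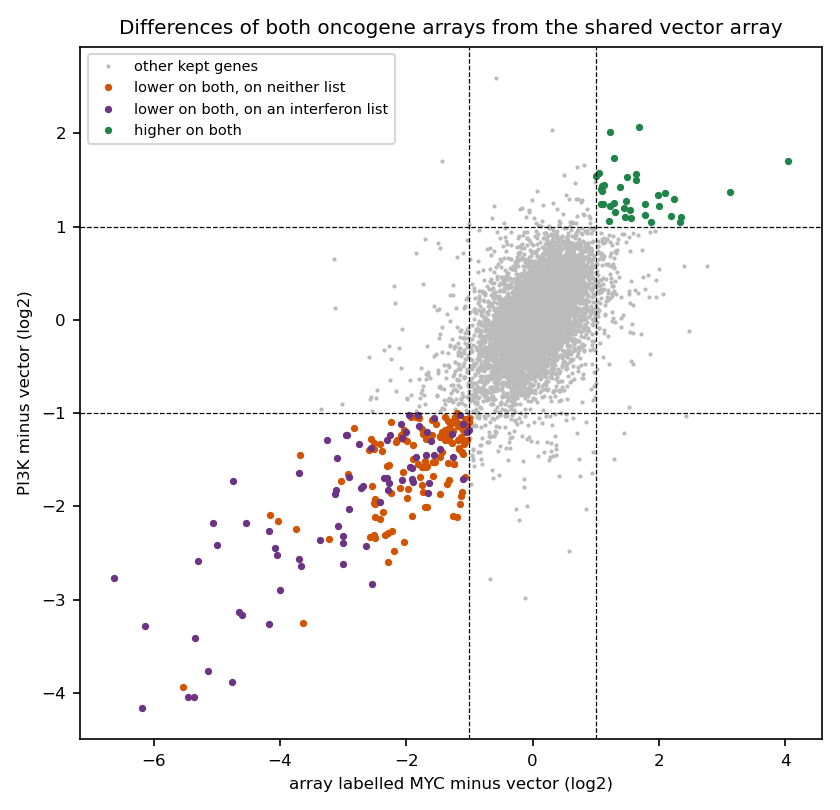
Each point is a kept gene, with the array labelled MYC minus vector on the horizontal axis and PI3K minus vector on the vertical axis, both in log2 units, and dashed lines at 1 log2. The vector array enters both axes, so the slope of the cloud is not evidence of a shared response. The coloured points are the 130 lower genes off the lists, the 76 lower list genes and the 36 higher genes.

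The 130 lower genes on neither list had a median difference of -1.68 log2 on the array labelled MYC and -1.40 on PI3K, and their smaller difference ranged from -3.94 to -1.0. With dim genes taken at their bound, explained next, the medians were -1.19 on both. Only 52 of them were above background on all 3 arrays, and 62 were above background on vector alone. For a gene that was not above background on an array, the fold is a lower bound. It was taken against the higher of the gene's own signal and the lowest signal above background (283.7 for both oncogene arrays and 233.3 for vector). A limit for the PI3K array is a substitute, because no detection values could be tied to that array.

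Proteases and their inhibitors held the gene with the largest shared difference off the lists. KLK5 encodes a secreted serine protease of stratified epithelia that starts a cascade of kallikreins. Its signal was 94.0 on the array labelled MYC and 283 on PI3K, against 4341 on vector, and it was not above background on either oncogene array. KLK5 was thus at least 15.3-fold lower on both. Its other 2 kept probes were also below background on both oncogene arrays, which bounds them at 12.5-fold and 1.11-fold lower than on vector. KLK10, a related protease, had 126 and 164 on the oncogene arrays against 711 on vector, which makes it at least 2.51-fold lower on both. SERPINA3, an inhibitor of chymotrypsin-like proteases, had 126 and 149 against 749, at least 2.64-fold lower. TFPI, an inhibitor of the tissue factor pathway of clotting, had 135 and 297 against 637. Of 17 kept kallikreins and protease inhibitors, these 4 were lower on both arrays and 0 were higher, and the list's median was -0.51 log2 on the array labelled MYC and -0.21 on PI3K. Over all kept genes 2.53% were lower on both arrays and 0.442% higher. Finding 0 higher in a list of this size, here and below, therefore says little. List medians here and below use every kept member's value as deposited, dim ones included.

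**Figure D3:**
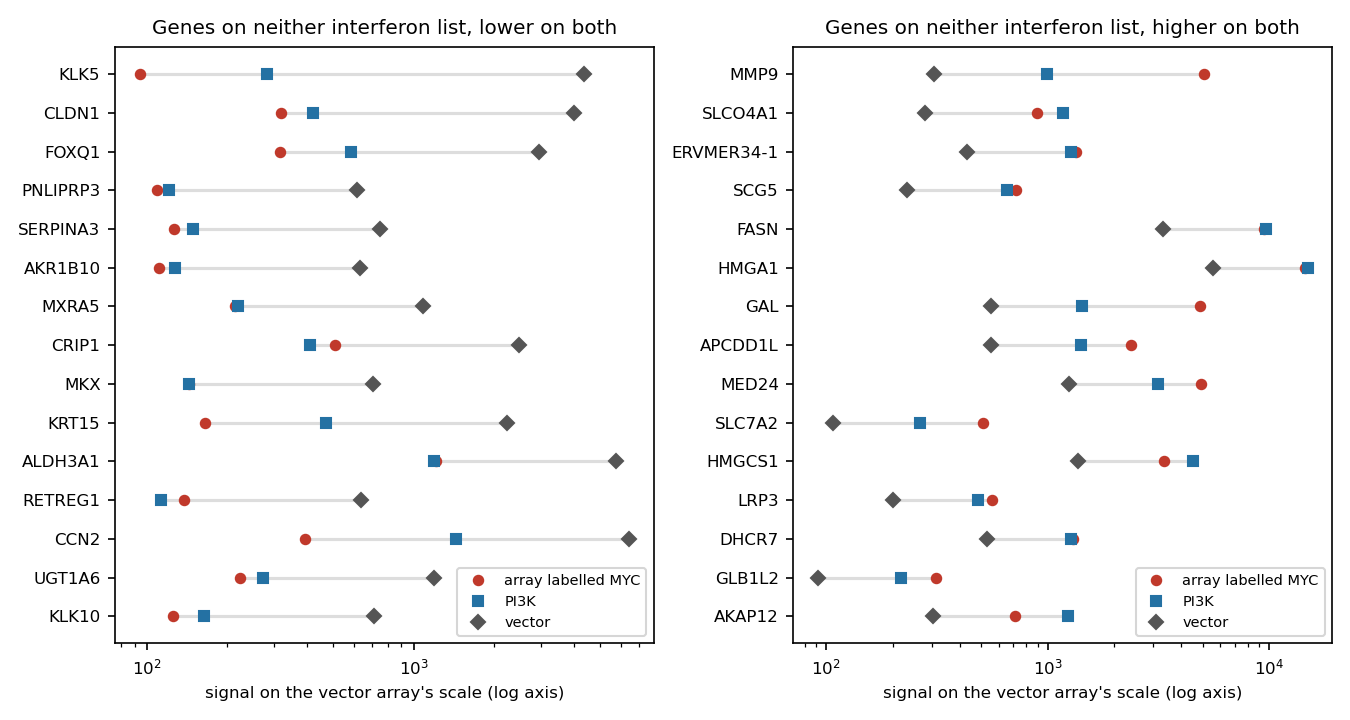
Signals on the vector array's scale (log axis) are drawn for the 15 genes with the largest smaller difference off the interferon lists in each direction, with 1 point for each array. On the left, the signals of KLK5 run from 94.0 on the array labelled MYC to 4341 on vector, and on the right those of MMP9 run from 5081 on the array labelled MYC to 306.5 on vector.

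Genes of cell contacts and of the basal layer were lower in part. The arrays read whole cultures, so fewer cells of a type and less RNA per cell cannot be told apart. CLDN1, which seals tight junctions, had 319.5 on the array labelled MYC and 418 on PI3K, against 3991 on vector. It was above background on all 3 arrays and 12.5-fold lower on the array labelled MYC and 9.54-fold lower on PI3K. KRT15, a keratin of basal cells, had 166 on the array labelled MYC, 469.9 on PI3K and 2231 on vector, so it was at least 7.86-fold lower on the first and 4.75-fold lower on PI3K. DKK3, a secreted protein of basal prostate cells, had 1303 and 2780 against 6989, and its second probe read -2.52 and -1.39 log2. KRT15 and DKK3 were the only 2 of 21 kept basal genes past 1 log2 on both arrays, while the keratins KRT5 and KRT14 stood at -1.66 and -1.98 log2 on the array labelled MYC and at -0.56 and -0.85 on PI3K. The squamous genes CALML3, a calmodulin-like protein, DSG3, a desmosomal cadherin, and KRT13, a suprabasal keratin, were 3 of 18 on their list. CALML3 had 636 and 678 against 2181. KRT13 had 148 and 189 against 388, not above background on either oncogene array, so it was at least 1.37-fold lower. At that bound KRT13 does not reach 2-fold. The cell junction list had CLDN1 and DSG3 lower of 21 kept, with medians of 0.02 and 0.05 log2, and 18 of the 21 stood within 1 log2 of vector on both arrays. FOXA1, a pioneer factor of luminal cells, was the single lower gene among 10 kept luminal and prostate genes, below background and at least 2.87-fold lower on the array labelled MYC, and at -1.06 log2 on PI3K.

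Of 24 kept genes of antioxidant defence and detoxification, 6 were lower on both arrays and 0 were higher, against 2.53% and 0.442% of all kept genes. ALDH3A1, an aldehyde dehydrogenase of barrier epithelia, had 1217 on the array labelled MYC and 1191 on PI3K, against 5701 on vector, and was 4.68-fold and 4.79-fold lower. AKR1B10, which reduces aldehydes and retinal, had 111 and 127 against 632, at least 2.23-fold lower on both. UGT1A6, which couples glucuronic acid to phenols, had 223 and 272 against 1192, at least 4.20-fold lower, and its second probe was at least 4.08-fold lower. AKR1C3, which makes testosterone from androstenedione, had 486 and 711 against 1808. AKR1C2 and ALDH3A2 had differences of -1.06 and -1.33 log2 on the array labelled MYC and of -1.69 and -1.16 on PI3K. The AKR1B, AKR1C and UGT1A genes have near-identical copies, which a probe may not separate. The list medians were -0.25 and -0.31 log2.

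Some matrix genes and some targets of the mechanical co-activator YAP were also lower on both arrays. CCN2, a matricellular growth factor and a standard YAP target, had 391 on the array labelled MYC and 1441 on PI3K, against 6411 on vector, and was 16.4-fold and 4.45-fold lower. NT5E, which makes adenosine at the cell surface, was the other lower gene of 19 kept YAP and SRF targets, with 345 and 441 against 1040. EFEMP1, an extracellular matrix glycoprotein, had 653 and 3059 against 8377. COL8A1, a collagen chain, had 175 on the array labelled MYC, below background, and 420.5 on PI3K, against 1325 on vector, at least 4.67-fold and 3.15-fold lower. COL5A1, another collagen chain, read -1.74 log2 on the array labelled MYC and -1.57 on PI3K. FBLN1, a fibulin, read -2.08 and -1.24, and its second probe read -1.19 and -0.79. Its remaining probe was below background on both oncogene arrays. The matrix list had 4 lower and 1 higher of 22 kept genes, and the higher one was MMP9, a secreted matrix metalloproteinase. Its medians were 0.00 log2 on the array labelled MYC and -0.24 on PI3K, so the list as a whole was little shifted. The YAP and SRF list had medians of -0.45 and -0.16. None of the 13 kept TGF-beta and BMP targets passed in either direction, against 2.53% lower and 0.442% higher over all kept genes.

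Of 19 kept genes on the WNT and NOTCH list, 4 were lower on both arrays and 0 were higher, against 2.53% and 0.442% of all kept genes. SFRP1, a secreted WNT antagonist, had 1902 and 1758 on the oncogene arrays against 6343 on vector, 3.34-fold lower on the array labelled MYC and 3.61-fold lower on PI3K. DLL1, a NOTCH ligand, had 139 and 234 against 692. TLE2, a co-repressor of both pathways, had 112 and 113 against 304. It was not above background on either oncogene array and was at least 1.07-fold lower, a bound short of 2-fold. With DKK3 these were all 4, and the list medians were -0.37 and -0.71 log2.

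For the 2 lists that follow, the shares over all kept genes were 2.53% lower and 0.442% higher. Genes that FOXO factors activate included 5 lower of 23 kept and 0 higher: TNFSF10, PDK4, FBXO32, BCL6 and IRS2. TNFSF10, the death ligand TRAIL, is also on the extended interferon list, and had 192 and 391 against 2445. PDK4, a kinase that restrains pyruvate use, had 98.3 and 128 against 465, at least 1.64-fold lower on both. FBXO32, a ubiquitin ligase of muscle wasting, had 275 and 286 against 822, and its second probe, at 236 on vector and below background on both oncogene arrays, gives no fold. BCL6, a transcriptional repressor, read -1.98 and -1.30 log2. Glucocorticoid-responsive genes had 4 lower of 11 kept and 0 higher: SGK1, ZBTB16, CEBPD and TSC22D3. SGK1, a kinase downstream of PI3K, had 355 and 1486 against 6344, 17.9-fold lower on the array labelled MYC and 4.27-fold lower on PI3K. ZBTB16, a zinc finger repressor, had 135 and 246 against 609, at least 2.14-fold lower. CEBPD, a transcription factor of acute stress, had 3612 and 4263 against 9783, and TSC22D3, an anti-inflammatory mediator, had 3139 and 2625 against 6425. The glucocorticoid list medians were -0.51 and -0.26 log2, and the FOXO medians -0.22 and -0.41.

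Inflammatory genes and NF-kB targets had 6 of 29 kept members lower and 0 higher, against 2.53% and 0.442% of all kept genes. Of the 6, 4 are also on the extended interferon list: CCL2, IL6, CFB and CCL5. CCL2, which draws monocytes, had 96.9 and 126 on the oncogene arrays against 777 on vector, at least 2.74-fold lower. IL6, a cytokine that signals through STAT3, had 158 and 182 against 592, at least 2.09-fold lower. CFB, complement factor B, had 232 and 523 against 1361. CXCL8 and CXCL2, chemokines for neutrophils, were on neither interferon list and read -1.39 and -1.69 log2 on the array labelled MYC and -1.29 and -1.21 on PI3K. The list medians lay apart, at -0.77 log2 on the array labelled MYC and -0.04 on PI3K. Without the interferon list genes, 2 of 21 kept members were lower, with medians of -0.51 and 0.00.

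The remaining genes among the 15 largest off the lists belonged to no list. FOXQ1, a forkhead transcription factor, had 315 on the array labelled MYC and 579.8 on PI3K, against 2958 on vector, and was 9.38-fold and 5.10-fold lower. CRIP1, a small LIM-domain protein, had 507 and 409.8 against 2487, and was 4.90-fold and 6.07-fold lower. MXRA5, a matrix remodelling protein, had 213 and 219 against 1082, at least 3.81-fold lower on both. MKX, a homeobox factor of tendon, had 144 and 145 against 705, at least 2.49-fold lower. PNLIPRP3, a lipase relative, had 109 and 121 against 615, and RETREG1, a receptor for autophagy of the endoplasmic reticulum, had 138 and 114 against 634. Both lay below background on the oncogene arrays and were at least 2.17-fold and 2.24-fold lower.

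Being on neither list does not mean that a gene is not induced by interferon. IFNL1, a type III interferon, had 127 and 151 against 322, below background on both oncogene arrays and at least 1.13-fold lower. SPATS2L had 2408 and 2236 against 5459. Both were singled out after their values were seen.

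The higher genes were fewer, with medians of 1.49 log2 on the array labelled MYC and 1.29 on PI3K, and none reached 2 log2 on both arrays. With dim genes at their bound the medians were 1.30 and 1.25, against -1.19 on both for the 130 lower genes off the lists. On vector, 25 of the 36 were above background. The 2 lipid synthesis lists held the most higher genes. FASN, the fatty acid synthase, had 9449 on the array labelled MYC and 9639 on PI3K, against 3333 on vector, 2.84-fold and 2.89-fold higher. SCD, which desaturates fatty acids, had 24287 and 26756 against 11264, and ACLY, which supplies cytosolic acetyl-CoA, had 1886 and 2740.3 against 936.5. These 3 of 19 kept fatty acid genes were higher, while SCD5, a relative of SCD, was lower, with 272 and 228 against 574. HMGCS1, the enzyme that commits acetyl-CoA to sterols, had 3339 and 4549 against 1369, 2.44-fold and 3.32-fold higher. DHCR7, which catalyses the last step to cholesterol, had 1296 and 1272 against 532, and SQLE, squalene epoxidase, had 4758 and 5940.2 against 2244. These 3 of 15 kept cholesterol genes were higher and 0 were lower. The list's medians were 0.60 and 0.89 log2, and IDI1, at 0.98 and 1.48 log2, fell just short.

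Outside lipid synthesis, MMP9 had the largest difference. Its signal was 5081 on the array labelled MYC and 996 on PI3K, against 306.5 on vector, 16.6-fold and 3.25-fold higher. GAL, the neuropeptide galanin, had 4849 and 1433 against 554, 8.75-fold and 2.59-fold higher. SLCO4A1, an organic anion transporter, had 898 and 1169.8 against 279, and was further from vector on PI3K (4.19-fold) than on the array labelled MYC (3.21-fold). HMGA1, a chromatin protein of proliferating cells, had 14562 and 14892 against 5552, and its second probe was not above background on vector, at least 1.24-fold and 1.22-fold higher. MED24, a Mediator subunit, had 4941 and 3151 against 1245, and its second probe read 2.06 and 1.33. ERVMER34-1, an envelope gene of an endogenous retrovirus, had 1336 and 1278 against 430.4. APCDD1L had 2387 and 1419.8 against 554.5, which is 4.30-fold and 2.56-fold higher. SCG5, a chaperone of the secretory granule and 1 of 2 kept neuroendocrine markers, had 721 and 654 against 231, at least 3.09-fold and 2.80-fold higher. LRP3, a lipoprotein receptor relative, was not above background on vector and was at least 2.40-fold and 2.08-fold higher. AKAP12, a scaffold for protein kinase A, had 711 and 1230.1 against 303, with a second probe below background on PI3K and vector. SLC7A2, a transporter of basic amino acids, and GLB1L2 were below background on both PI3K and vector, so no fold can be given for PI3K. On the array labelled MYC, SLC7A2 was at least 2.19-fold and GLB1L2 at least 1.35-fold above vector.

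Single higher genes came from other lists. ODC1, the first enzyme of polyamine synthesis and a textbook MYC target, had 8612 and 7809 against 3736, and was the only one of 26 kept polyamine and nucleotide genes past the threshold. ALDOC, an aldolase, had 2769 and 3453 against 1265 and was the only one of 20 glycolysis genes. ETV4, an ETS factor of the ERK pathway, had 949 and 602 against 275, with a second probe at 1.59 and 0.96 log2. None of 28 kept ribosome biogenesis genes passed, while their median was 0.66 log2 on the array labelled MYC and 0.26 on PI3K. None of 38 mitosis genes passed, and their medians had opposite signs, -0.47 log2 on the array labelled MYC and 0.41 on PI3K. None of 32 DNA replication, 18 endoplasmic reticulum folding, 27 ATF4 or 8 metallothionein genes passed in either direction. Over all kept genes 2.53% were lower on both arrays and 0.442% higher, so finding none in lists of these sizes says little about them. CRYAB, a small heat shock protein, PLK2, a p53-induced kinase, SLC1A3, a glutamate transporter, and H19, an imprinted noncoding RNA, were each the single lower gene of their lists. These lists had 26, 19, 10 and 8 kept genes, so 1 lower gene says little about a list. CRYAB was not above background on either oncogene array and was at least 1.21-fold lower, a bound short of 2-fold. Housekeeping genes had 0 of 21 past the threshold, with medians of 0.00 and 0.24 log2.

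**Figure D4:**
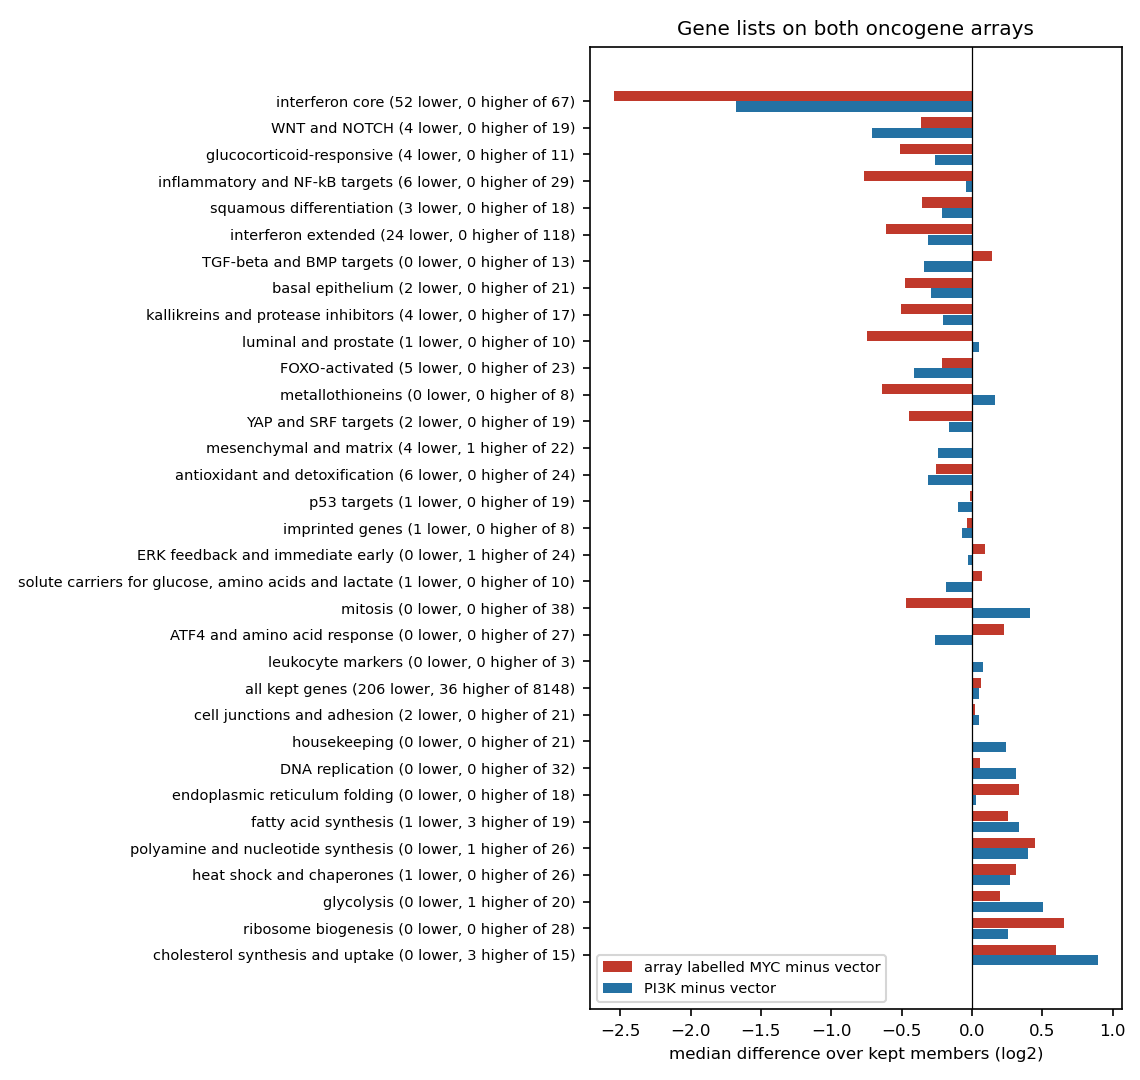
Bars give the median log2 difference from vector over the kept members of each list with at least 3, for the array labelled MYC above and for PI3K below it, with the number of members lower and higher on both arrays beside each name. The core interferon list lies farthest to the left (-2.54 and -1.68), and the cholesterol list at the bottom has 0.60 and 0.89.

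The interferon lists supplied the largest shared differences. Of the core list, 72 of 79 genes were on the array, 67 were kept and 52 were lower on both. IFI27, a mitochondrial protein used as a marker of interferon exposure, had 232 on the array labelled MYC and 949 on PI3K, against 16960.4 on vector. It was at least 59.8-fold lower on the array labelled MYC, where it was below background, and 17.9-fold lower on PI3K. IFI6, its relative, was at least 38.5-fold and 16.5-fold lower. IFI44L was at least 15.5-fold, RSAD2, which makes an antiviral nucleotide, at least 10.6-fold and OAS1, an RNA-sensing synthetase, at least 7.24-fold lower on both. XAF1, a partner of the survival protein XIAP, was at least 15.1-fold and 13.7-fold lower, MX2, a GTPase against retroviruses, at least 10.9-fold and 10.7-fold, and OAS2 at least 27.1-fold and 9.71-fold. Signal transducers were among them: IRF9 had 502 and 2095 against 6533, and IRF7 had 433 and 592 against 2298.

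The other 15 kept core genes were not 1 log2 lower on both arrays, and none was higher on both. BST2, a tether of budding virus, had differences of -2.58 and -0.40 log2, IFITM3, which blocks virus entry, of -1.75 and -0.75, and NMI of -1.80 and -0.64, in the order array labelled MYC and PI3K. IFI30, a thiol reductase of antigen processing, stood at -0.10 and -0.15. The extended list had 24 of 118 kept genes lower and medians of -0.61 and -0.31 log2. IFNGR1, a chain of the interferon gamma receptor, was at -1.46 and -1.38.

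The 2 oncogene arrays can also be set against each other, without vector. There were 7679 kept genes above background on either or both. With a dim signal taken at its bound, 1.97% were at least 1 log2 lower on the array labelled MYC than on PI3K and 1.85% at least 1 log2 higher. Genes above background on both had a median of 0.01 log2. Of the 76 lower list genes, 32 were above background on both oncogene arrays, 23 on 1 of them and 21 on neither, where no difference can be read. Of the 32, 25 were lower on the array labelled MYC, 12 of them by at least 1 log2, with a median of -0.79, and a bound put 8 more at least 1 log2 lower. Of the 130 lower genes off the lists, 52 were above background on both, 33 of them were lower on the array labelled MYC, 7 by at least 1 log2, and the median was -0.17. The 7 were EFEMP1, SGK1, CCN2, C1orf116, TM4SF1, TENT5B and DKK3, at -2.23, -2.06, -1.88, -1.20, -1.20, -1.12 and -1.09 log2.

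MX1, a GTPase against influenza virus, had a signal of 269 on the array labelled MYC, below background, and 3890.1 on PI3K, so it was at least 13.7-fold lower on the array labelled MYC. HERC5, the ISG15 ligase, was above background on both, with 403 and 3259, a difference of -3.01 log2. IFI44, OAS2 and IFIT3 were below background on the array labelled MYC, so their differences are known only as bounds: IFI44 was at least 3.98-fold and IFIT3 at least 3.15-fold lower there than on PI3K. In the other direction MMP9, GAL, TNFRSF8, SUN3 and NT5DC2 were higher on the array labelled MYC than on PI3K by 2.35, 1.76, 1.28, 1.26 and 1.08 log2, all above background on both. TNFRSF8, the receptor CD30, had 886 and 366 against 176 on vector, where it was not above background. These were 5 of the 36 higher genes. Among lower genes, none was measured or bounded at 1 log2 or more higher on the array labelled MYC than on PI3K. ALDH3A1 (0.03 log2), FASN (-0.03), HMGA1 (-0.03) and DHCR7 (0.03) had nearly the same signal on both oncogene arrays.

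A second probe of the same gene is the one technical check the arrays allow. Over 951 pairs of kept probes, the SD between the 2 probes of a gene, divided by the square root of 2, was 0.26 log2 for either difference. It was 0.20 for the array labelled MYC and 0.21 for PI3K over the 718 pairs above background on all arrays. This covers the probe, and leaves out the spread between cultures, RNA preparations and hybridisations. Among lower genes 29 had a second probe, which read lower on both arrays in 28. A probe dim on the array labelled MYC was kept only if detected on vector, so the filter favoured a lower reading there. The second probe was above background on all 3 arrays in 10, and 4 of these 10 passed 1 log2 on both. With dim signals at their bound it passed 1 log2 on both in 15 of the 29. Off the lists 18 of 18 read lower. Of these, 7 were above background on all arrays, and 3 of those 7 passed. With dim signals at their bound, 7 of the 18 passed. For the higher genes 4 of 4 read higher, 2 were above background on all arrays and 1 passed. The exception was IFI6, whose second probe read -2.58 log2 on the array labelled MYC and 0.31 on PI3K. GAMT, of creatine synthesis, was below background on both oncogene arrays by its brightest probe, at 250.4 and 217 against 562, while another probe was above background there but not on vector, at 320.5 and 304 against 212. The other 177 lower and 32 higher genes rest on 1 kept probe each.

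**Figure D5:**
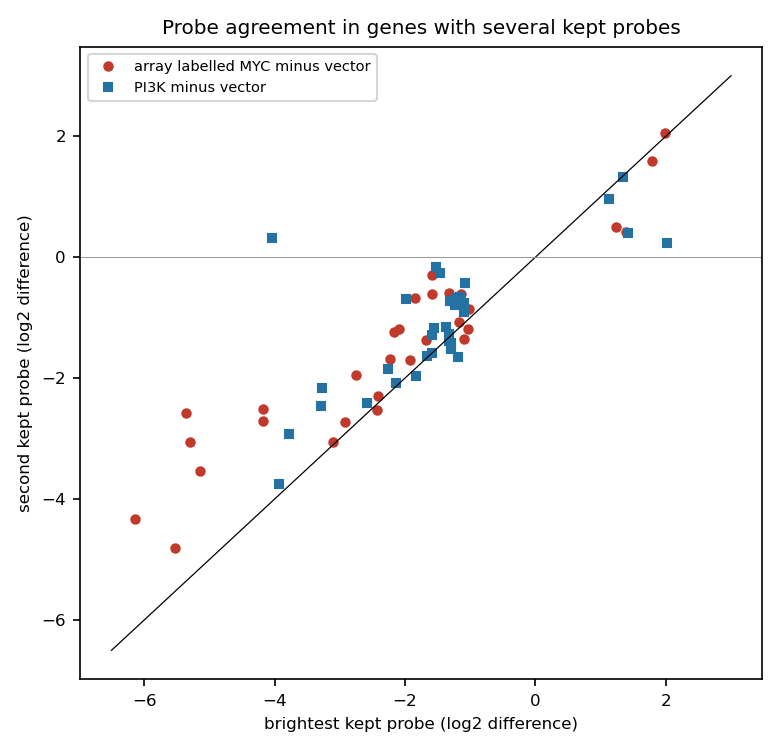
For each gene with several kept probes, the log2 difference of the second probe (vertical) is set against that of the brightest (horizontal), for the array labelled MYC and for PI3K, with a line of equality. Most points lie below 0 on both axes, with 28 of 29 lower genes lower on both arrays by the second probe, and the second probe of HMGA1, not above background on vector, lies under the line. Values of dim probes are plotted as deposited, and the detection filter favours a lower reading for those dim on the array labelled MYC.

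Neighbouring genes in the RefSeq order were sometimes lower together. There were 14 runs of adjacent lower genes, holding 29 genes, and 5 runs held no interferon list gene: AKR1C2 with AKR1C3, AKR1B10 with AKR1B15, KRT13 with KRT15, PLXDC2 with NEBL and ZBTB16 with NNMT. The AKR1C and AKR1B pairs are near-identical relatives, where a probe may read both copies. The list gene runs included OAS1, OAS3 and OAS2, and IFI44L with IFI44. The share of kept genes that were lower on both was 2.53% over all. It was highest on chromosome 10, at 15 of 316 (4.75%), and lowest on chromosome 16, at 2 of 389 (0.514%). Others lay close to these extremes: chromosomes 3 and 4 had 4.18% and 4.01%, and chromosomes 18 and 15 had 0.943% and 1.145%. The counts are small, and a difference between chromosomes was not tested.

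The threshold cut through a continuous range. Just inside on the lower side lay IFI16, RBMS1 and PARP3, at -1.0, -1.0 and -1.01 log2 for the smaller difference, and just outside lay ZC3HAV1, C5 and STX10, at -1.0, -0.99 and -0.99. On the higher side ACLY, FUOM and CENPV were just inside at 1.01, 1.05 and 1.05, and IDI1, SMTN and ANPEP just outside at 0.98, 0.98 and 0.95. Within 0.1 log2 of the threshold there were 32 genes inside and 30 outside on the lower side, and 8 inside and 16 outside on the higher side. Taken singly, the array labelled MYC had 389 genes at least 1 log2 below vector (4.77%) and 188 above it (2.31%), and PI3K had 330 below (4.05%) and 86 above (1.06%).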

How the data were processed

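Total RNA of 3 RWPE1 cultures, 1 per group, was hybridised as biotinylated cRNA to 3 Illumina arrays. The submitters' processing notes name GenomeStudio, with a version not given in the sources used here. The authors deposited linear signal intensity for 24526 probes, not normalised per the file headers, and beside each signal a detection fraction, named as a p-value in the header. The fraction ranks with the signal (rank correlation 0.981 on the array labelled MYC and 0.976 on vector), so a high fraction was taken to mean a detected probe. In the scanner table, 2 further columns of values carry no sample's name and were left out. The authors also deposited log2 values for all 3 arrays. For the array labelled MYC and vector their difference equals that of the log2 signals shifted by 0.52, the gap between the arrays' 75th percentiles. A constant of unknown origin was taken from each probe, and the PI3K column was assumed to be made alike. The column medians are 0.07 for the array labelled MYC, 0.04 for PI3K and -0.16 for vector.

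Of the probes, 21834 have 1 gene symbol, 0 several and 2692 none. Of the named probes, 21813 matched a reference table by gene ID. They cover 16922 genes. Probes with a detection value above 0.99 on the array labelled MYC or on vector were kept (9242 probes), and a gene took its brightest kept probe. Signals of the array labelled MYC and of PI3K were placed on the vector scale by multiplying the vector signal with the antilog of the deposited difference. Each group is 1 array, so there was no test. The counting was tested on simulated data with planted shifts well past the threshold and no background limit. It therefore says nothing about genes near the threshold or below background. Python 3.11.15, pandas 2.3.3, numpy 2.4.6, matplotlib 3.10.9, R 4.3.3 and limma 3.58.1 were used.

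The genes, the 35 gene lists and the choice of comparisons were made with earlier results of these data known. Genes were named by a rule: off the interferon lists, the 15 with the largest smaller difference in each direction; on them, the 8 largest; up to 4 per other list; the 3 on either side of the threshold; the 5 with the largest difference between the oncogene arrays each way; the introduced genes; and genes whose probes disagree in sign. Other names were chosen after their values were seen: SPATS2L, IFNL1, EFEMP1, KRT5, KRT14, IRF7, IRF9, IFNGR1, BST2, IFITM3, NMI, IFI30, list members beyond the 4 largest, genes named to fill a small count, the promoter examples and the genes under other observations. Alternatives covered the scaling, the background correction, added signal, the detection limit, the probe rule, the threshold and leaving out each oncogene array.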

Additional observations from a re-analysis of the deposited data

How the results depend on the processing

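No paired analysis was possible because each group has 1 array. The counts in the report are 206 lower and 36 higher genes, of which 130 and 36 were on neither interferon list. Requiring detection above 0.99 on both scanned arrays gave 90 lower genes, 58 of them off the lists, since genes dim on the array labelled MYC drop out. A threshold of 1.5 log2 gave 94 lower and 5 higher genes, with 46 and 5 off the lists. A threshold of 0.8 log2 gave 296 lower and 79 higher genes, with 211 and 79 off the lists. Leaving out the array labelled MYC or the PI3K array, an alternative chosen after seeing the data, replaced the shared difference by a single one and gave 330 to 389 lower and 86 to 188 higher genes, with 252 to 293 and 86 to 188 off the lists. Under the other alternatives, which changed the scaling, background correction, added signal, detection limit or probe rule or took dim genes at their bound, the lower count was 165 to 227 and the higher count 27 to 38. With dim genes at their bound, 165 of the 206 lower and 27 of the 36 higher genes stayed past 1 log2. Of 38 named genes, 36 to 38 stayed past 1 log2 under 5 of these alternatives and none changed sign, but 10 moved by more than the probe error with 50 added to the signals and 7 with the mean of the probes. With the mean of the probes the smaller difference of IFI6 was -1.87 and that of KLK5 -2.82, against -4.05 and -3.94 in the report. AKAP12 and HMGA1 stood at 0.86 and 0.91 with the mean of the probes, and GLB1L2 at 0.91 with 50 added to the signals. Of 32 lists, 3 with a mean difference near 0 (ATF4, leukocyte and mitosis) changed sign under 3 scalings. With no detection filter the median difference of all genes moved to 0.23 log2 on the array labelled MYC and 0.20 on PI3K. Limits are the single array per group, the substitute background limit for PI3K, the MYC probe that goes against its label, and the low signal of many lower genes.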

Other observations

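Some lower genes on neither interferon list that the report does not describe are given here as values. They were picked after their values were seen and form no list, so no theme is drawn from them. NFIX, a nuclear factor, had 4776 on the array labelled MYC and 5834 on PI3K, against 20395 on vector. PITX1, a homeobox factor, had 3657 and 3194 against 9290.5. IRX4, a homeobox factor of the Iroquois group, had 671 and 1002 against 2251. All 3 were above background on every array. ZIC2, TSHZ2 and TSHZ3, zinc finger factors, lay below background on both oncogene arrays, with vector signals of 912, 684 and 648. TFCP2L1, a Grainyhead relative, had 274 and 408 against 1549. LMO2 had 168 and 181 against 439, again below background on both oncogene arrays.

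LRIG1, which limits EGF receptor levels, had 291 on the array labelled MYC and 289.6 on PI3K, against 803 on vector. IGFBP6, which binds insulin-like growth factors, had 2668 and 2118 against 8528. IRS2, an adaptor of the insulin receptor, had 979 and 1029 against 2343. DHRS3, a retinal reductase, and FAM43A were higher on the array labelled MYC than on PI3K, by 0.92 and 0.84 log2.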
